A study of Mus musculus with 16 samples.

Results

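Irx1, Susd4, Moxd1 and Tm4sf20 are 4 genes whose liver signal was lower after repeated CCl4 treatment on arrays from wild type (WT) or Lcn2-/- mice. They were chosen by that measured value, as some of the deepest falls of the log2 normalized signal between control and CCl4 arrays in at least 1 genotype, so the fall itself is described here and not tested. Each is read by 1 probe of 60 bases, and the 4 probes were among 33004 tested of 55681 gene probes on the array. From the deepest fall down, Irx1 ranked 4 in WT and 1 in Lcn2-/-, Susd4 1 and 2, and Moxd1 504 and 4. Tm4sf20 ranked 64 in WT and 913 in Lcn2-/-, where its signal was below background in both groups. Some deeper falls, among them that of Slc1a2, were not chosen. The animals were male BALB/c mice, 6 to 8 weeks old and kept on chow. Those of the CCl4 groups received 0.5 ml/kg of CCl4 in corn oil into the peritoneum, 2 times per week for 4 weeks, and were killed 48 h after the last dose, while controls received corn oil. The control groups held 4 WT and 3 Lcn2-/- livers and the CCl4 groups 5 WT and 4 Lcn2-/- livers, with 1 array per liver. The Lcn2-/- line lacks lipocalin 2, a secreted protein, in all cells. It was made on another background and crossed back to BALB/c. The members lie on chromosomes 1, 10 and 13 and Lcn2 on chromosome 2, and whether DNA of the other background remains near any of them was not examined.

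CCl4 is turned into a toxic radical by cytochrome P450 enzymes of the hepatocytes around the central vein, and repeated doses scar the liver. The 4 genes come from unrelated families. Irx1 encodes a homeobox transcription factor of the Iroquois family, known for patterning the embryo. Susd4 encodes a membrane protein with sushi domains, the modules shared by regulators of complement, and it is known to restrain complement activation. Moxd1 encodes a copper-dependent monooxygenase related to the enzyme that makes noradrenaline from dopamine. Tm4sf20 encodes a membrane protein of the L6 tetraspan family, whose orientation in the membrane governs the proteolytic activation of the transcription factor Creb3l1.

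The probes are shown because every value below is read through them, and their positions are those of the deposited files on mm9. The Irx1 probe lies at chr13:72095735-72095794 on the minus strand, that of Susd4 at chr1:184825726-184825785 on the plus strand, that of Moxd1 at chr10:24022208-24022266 on the plus strand, and that of Tm4sf20 at chr1:82753547-82753603 on the minus strand. Which exon or untranslated part each one reads was not analysed here. The first 30 bases of each, 5′ to 3′, with no part in capitals, are as follows.
Irx1: ctttgtttcttttttcccctttctgtatat
Susd4: ttgcttctaaaatctgctttgaactgtcta
Moxd1: cactcagtgctaccctctgggtcgatctga
Tm4sf20: aaagcttttaggtttcttttttcctatgta
The probes of Irx1 and Tm4sf20 had a GC content of 36.7% each over their 60 bases, and those of Susd4 and Moxd1 had 45.0% each.

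Promoters were available from RefSeq for 2 of the 4 genes, Susd4 and Moxd1, on GRCm38.p6. They are printed for these 2 genes because no promoter was available for Irx1 and Tm4sf20. Each covers the 250 bases upstream of a transcription start, for Susd4 the first of 2 annotated starts. Shared control of the 2 genes was not tested.
Susd4, chr1:182763966-182764215, plus strand: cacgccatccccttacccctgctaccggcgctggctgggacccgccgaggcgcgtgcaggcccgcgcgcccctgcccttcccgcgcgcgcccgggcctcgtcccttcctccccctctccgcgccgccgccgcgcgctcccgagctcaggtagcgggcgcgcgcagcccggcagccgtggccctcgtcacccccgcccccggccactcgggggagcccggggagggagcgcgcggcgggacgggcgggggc
Moxd1, chr10:24223267-24223516, plus strand: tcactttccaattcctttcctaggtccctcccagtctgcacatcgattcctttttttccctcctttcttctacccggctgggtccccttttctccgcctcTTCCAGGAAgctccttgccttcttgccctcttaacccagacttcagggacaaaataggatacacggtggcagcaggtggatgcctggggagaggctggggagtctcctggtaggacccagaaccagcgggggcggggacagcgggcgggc
The Susd4 stretch had a GC content of 82.8% and 41 CpG dinucleotides, that upstream of the second annotated Susd4 start had 61.6% and 10, and the Moxd1 stretch had 58.4% and 8, against a median GC content of 52.4% over 32851 upstream stretches of the same length. The capitals mark the single match found in Moxd1, to the STAT5 motif TTCNNNGAA, from 150 to 142 bases before the start. That motif occurred in 7.02% of all stretches. The other 7 motifs searched on both strands were the TATA box TATAAA (in 12.4% of all stretches), HNF1 (0.00913%), HNF4 CAAAGTCCA (0.384%), CEBP TTGCGCAA (0.164%), FOXA TGTTTAC (3.17%), AP-1 TGANTCA (6.75%) and the glucocorticoid receptor motif (0.00913%). These letters were not in either stretch, and none of the 8 motifs was in the Susd4 stretch.

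Values below are log2 of the quantile-normalized processed signal unless stated otherwise, and a probe is called well above background where the scanner software marked it so. The share of spots that passed this mark ran from 51.6% to 60.9% per array, and 0 gene spots were saturated. Lcn2 was examined first as a check of the genotype labels, and it lay between 10.47 and 12.25 on the 7 Lcn2-/- arrays and between 13.79 and 17.57 on the 9 WT arrays. The Lcn2 probe was still well above background on all 7 Lcn2-/- arrays, and whether it lies in the deleted part of the gene was not analysed here. The arrays lay on 2 slides. Slide 1 held all 7 controls and WT CCl4 1, and slide 2 held the other CCl4 arrays. Within a slide, all Lcn2-/- arrays and WT CCl4 1 lay in 1 row and the other WT arrays in the other row. Among the controls, those numbered 3 in both genotypes were the closest to the CCl4 arrays. In whole liver RNA, fewer cells that express a gene and less RNA per cell cannot be told apart. For WT, 15% of the probes tested had a limma adjusted p under 0.05 between CCl4 and control, 7.71% lower and 7.29% higher. For Lcn2-/- the share was 11.1%, with 4.92% lower and 6.17% higher.

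Irx1 was well above background on every control array and on no CCl4 array. The log2 normalized signal of the 4 WT controls was 8.91, 9.10, 8.42 and 8.54, and that of the 3 Lcn2-/- controls was 9.94, 10.01 and 9.61. On the 9 CCl4 arrays it lay between 2.87 and 2.90. All 9 of those values are substitutes that the scanner software writes for spots it cannot tell from background, so they have no order and their small spread is not a spread of the gene. Before normalization, the processed signal of Irx1 ran from 368 to 412 in WT controls, from 708 to 731 in Lcn2-/- controls, and from 5.13 to 9.50 under CCl4. Against the lowest signal that any probe called above background had on the CCl4 arrays, Irx1 was at least 15.04-fold lower after CCl4 in WT and at least 23.3-fold lower in Lcn2-/-. The bounds lie below the fall itself, since the level under CCl4 was not measured. On the log2 scale they were 3.91 in WT and 4.54 in Lcn2-/-, and 2.52 and 3.26 after normexp background correction.

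**Figure D1:**
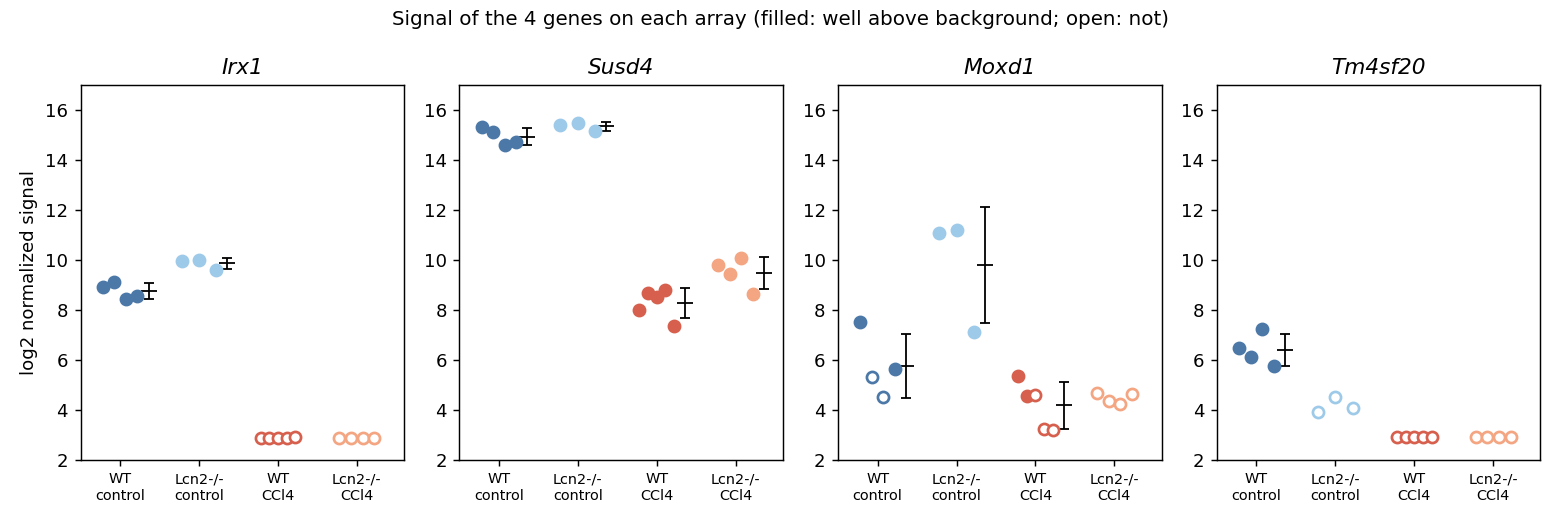
Log2 normalized signal of Irx1, Susd4, Moxd1 and Tm4sf20 on each of the 16 arrays, by group and in replicate order from left to right. Filled points are well above background and open points are not, and the black mark and bar are the mean and SD of a group that has at least 1 filled point; Irx1 and Tm4sf20 have only open points under CCl4, while all 9 Susd4 points there are filled.

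Of the 33004 probes tested, 13 (0.0394%) shared the pattern of Irx1, being well above background on all 7 controls and on none of the 9 CCl4 arrays. Among the named genes of that set, Esrrg, an orphan nuclear receptor, had means of 6.60 in WT control and 6.73 in Lcn2-/- control, and 3.34 and 3.59 under CCl4. Tmc7, of a family of channel-like membrane proteins, had means of 7.39 and 7.26 in controls and 3.28 and 4.53 under CCl4. The control means of Irx1 were 8.74 and 9.86. These genes were named after their values were seen.

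Susd4 did not go dark. The log2 normalized signal was 15.31, 15.11, 14.60 and 14.71 in the 4 WT controls and 15.41, 15.47 and 15.15 in the 3 Lcn2-/- controls. Under CCl4 it was 8.01, 8.68, 8.53, 8.79 and 7.36 in WT, and 9.81, 9.42, 10.09 and 8.63 in Lcn2-/-. The control and CCl4 groups did not overlap, as for 8.89% of all probes with lower values under CCl4 in WT and 12.1% in Lcn2-/-, and all 9 CCl4 values were well above background. These values go against the word silenced, which describes Irx1, detected on every control and dark on every CCl4 array. On the scale of the scanner, the processed signal of Susd4 ran from 25127 to 35568 over the 7 controls, from 154 to 693 in WT CCl4 and from 323 to 1236 in Lcn2-/- CCl4. The log2 normalized signal fell by 6.66 (SE 0.32) in WT and by 5.86 (SE 0.36) in Lcn2-/-, which correspond to 101-fold and 58.0-fold.

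Moxd1 was a different case in the 2 genotypes. The log2 normalized signal of WT controls was 7.53, 5.31, 4.51 and 5.64, of which the second and the third were not well above background. In Lcn2-/- controls it was 11.07, 11.19 and 7.12, all well above background. Under CCl4 it was 5.35, 4.55, 4.58, 3.24 and 3.20 in WT, with the first 2 of these well above background, and 4.69, 4.34, 4.24 and 4.64 in Lcn2-/-, none of them well above background. In WT the control and CCl4 values overlapped, with a difference of -1.56 (SE 0.78), or -0.97 without WT control 1. It was -0.47 after normexp background correction and -0.80 in the authors' own log2 table. In Lcn2-/- livers Moxd1 was at least 22.2-fold lower after CCl4. Lcn2-/- control 3, at 7.12, lay 3.95 below the next Lcn2-/- control. Without that array the lower bound of the log2 difference was 5.81, against 4.48 with it, and without Lcn2-/- control 2 it was 3.78, so the size of this fall rests on 3 unequal arrays. After normexp background correction the bound was 3.26.

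Tm4sf20 was measured above background in 1 group, the WT controls. Its log2 normalized signal there was 6.49, 6.10, 7.24 and 5.76. In Lcn2-/- controls it was 3.93, 4.51 and 4.07, and under CCl4 between 2.90 and 2.93, none of them well above background. The 9 CCl4 values are again substitutes of the scanner software, while those of the Lcn2-/- controls are not. Before normalization, the processed signal was 50.4 to 181 in WT controls, 12.6 to 19.3 in Lcn2-/- controls and 5.24 to 9.81 under CCl4. In WT the gene was at least 2.95-fold lower after CCl4, a bound of 1.56 on the log2 scale that was 0.83 after normexp background correction. No fold is given for Lcn2-/-, where both groups were below background, so a fall of Tm4sf20 was measured in WT alone. The pattern of being well above background on every WT control and on no other array was shared by 6 probes (0.0182%), 1 of them for Slc22a3, which encodes an organic cation transporter.

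The controls were not equal among themselves. WT control 3 had the lowest Irx1, Susd4 and Moxd1 signal of its group, and it had the highest Tm4sf20 signal. Lcn2-/- control 3 likewise had the lowest Irx1, Susd4 and Moxd1 signal of its group. The gap between the highest and the lowest control of a genotype was 0.68 for Irx1 and 0.70 for Susd4 in WT, and 0.40 and 0.32 in Lcn2-/-. It was 3.02 for Moxd1 in WT and 4.07 in Lcn2-/-, and 1.48 for Tm4sf20 in WT. Under CCl4 the lowest Susd4 values were those of WT CCl4 5 and Lcn2-/- CCl4 4.

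WT CCl4 1 separates treatment from slide, since it is the 1 treated array on the slide of the controls. On this slide Irx1 was not well above background on WT CCl4 1, at 2.88 against a WT control mean of 8.74. Susd4 was 8.01 there, 6.92 below the WT control mean, and Tm4sf20 was 2.91 against a mean of 6.39. The Moxd1 value on WT CCl4 1 was 5.35, only 0.40 below the WT control mean of 5.75. Between the slides, the mean of WT CCl4 2 to 5 was 8.34 for Susd4, 0.33 above WT CCl4 1. For Moxd1 no such difference is given, since WT CCl4 3, 4 and 5 were not well above background.

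The comparison of genotypes asks whether the 4 genes start from the same level in Lcn2-/- as in WT livers. The control values compared here also entered the choice of the genes, so these differences are descriptions, with no test. Irx1 was higher in Lcn2-/- controls by 1.11 on the log2 scale (SE 0.15, 2.16-fold). All 3 Lcn2-/- controls lay above all 4 WT controls, a pattern that 4.11% of all probes had with Lcn2-/- higher. Within the 3 pairs of controls with the same number, the difference was 1.03, 0.91 and 1.19. Since the CCl4 arrays hold substitute values with an SD of 0.01, they lower the pooled error, and with the 7 control arrays alone the SE was 0.20. Over 28 alternative settings the difference ran from 1.00 to 1.24, but those that left out a CCl4 array could not move it. Nor could slide row as a term, which rests on the substitute values of the WT CCl4 arrays. The difference was 1.01 without WT control 3, 1.24 without Lcn2-/- control 3 and 1.00 after normexp background correction.

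Tm4sf20 was lower in Lcn2-/- controls by at least 1.71-fold, against the same kind of lowest detected signal. On the log2 scale this bound is 0.77, and it ran from 0.45 to 0.98 over the alternative settings. Settings that left out a CCl4 array could not move it. The probe entered the tested set through the 4 WT controls, the only arrays on which it was well above background, so no exact difference is given. The lowest signal counted as well above background was higher on the Lcn2-/- control arrays, from 5.55 to 5.72, than on the WT control arrays, from 5.04 to 5.36, and 51.6% to 52.4% of spots passed there against 54.2% to 56.6%. Their part in the result was not tested.

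Moxd1 was 4.05 higher in Lcn2-/- than in WT controls (SE 0.89), with 2 of the 4 WT controls not well above background. The groups overlapped, since Lcn2-/- control 3, at 7.12, lay below WT control 1, at 7.53. Within the pairs of the same number the Lcn2-/- control was higher each time, by 3.54 in the pair numbered 1, the only pair with both values well above background. Without Lcn2-/- control 3 the difference was 5.38 and without Lcn2-/- control 2 it was 3.35, and with slide row as a term, where WT CCl4 1 alone separates row from genotype, it was 2.59. Susd4 differed by 0.41 between the control genotypes (SE 0.36), with overlapping groups. Within the same pairs its Lcn2-/- control was higher by 0.11, 0.36 and 0.55, and with the control arrays alone and a replicate block the difference was 0.34 (SE 0.12).

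**Figure D2:**
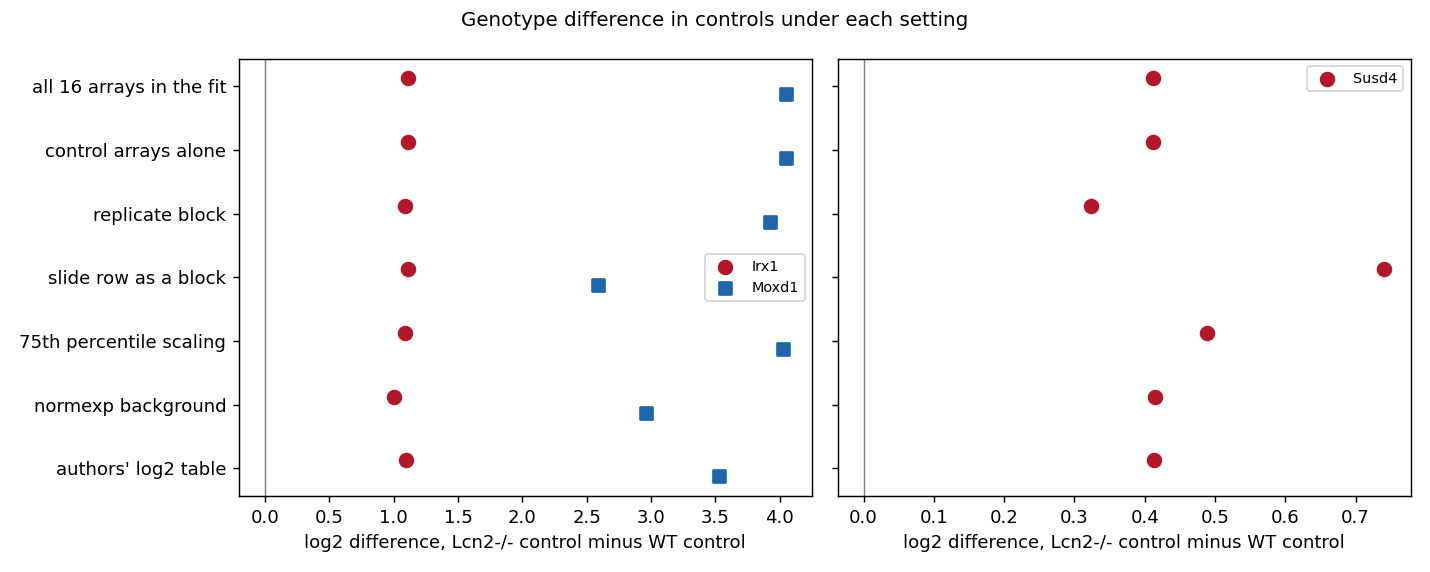
Log2 difference between Lcn2-/- and WT controls for Irx1 and Moxd1 (left) and Susd4 (right) under 7 settings. Irx1 stays between 1.00 and 1.11, while Moxd1 lies between 2.59 and 4.05. For Irx1 the settings of control arrays alone and of slide row could not move the value.

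Under CCl4 the genotypes can be compared only for genes still measured, again with values that entered the choice and so with no test. Susd4 was higher in Lcn2-/- than in WT CCl4 livers by 1.21 (SE 0.32, 2.32-fold). Of the 4 Lcn2-/- values 3 lay above all 5 WT values, and Lcn2-/- CCl4 4, at 8.63, lay within the WT range. Without that array the difference was 1.50, and the fits without 1 array ran from 0.98 to 1.50. On slide 2 alone the difference was 1.15. For Irx1 and Tm4sf20 no fold between the genotypes is given under CCl4, because every array was below background. None is given for Moxd1, which was well above background on 2 of 5 WT and 0 of 4 Lcn2-/- CCl4 arrays.

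The response to CCl4 in Lcn2-/- minus that in WT was 0.80 for Susd4 on the log2 scale (SE 0.48), given as a description. For Irx1, Moxd1 and Tm4sf20 it is not given, since at least 1 of their CCl4 groups was below background on every array.

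The genes with the most similar profiles were sought by the root mean square difference of centred log2 values over the 16 arrays. Among all probes tested, Susd4 was the nearest to Irx1 and Irx1 the nearest to Susd4, at 0.65, and both had been chosen for their falls. Outside the 4 genes, Slc1a2 was nearest to both, at 0.95 from Irx1 and 0.76 from Susd4. It encodes a glutamate transporter that marks the hepatocytes next to the central vein. Its log2 normalized signal ran from 13.41 to 14.00 over the 7 controls, from 5.96 to 8.42 in WT CCl4 and from 7.56 to 9.40 in Lcn2-/- CCl4, with no overlap between control and CCl4. The next genes for Irx1 were an unnamed transcript on chromosome 8 (1.17), Fitm1 (1.29), Obp2a (1.35) and Gm2350 (1.45), and for Susd4 the same chromosome 8 transcript (0.91), an unnamed transcript on chromosome 4 (1.38), LOC100048172 (1.39) and Fitm1 (1.40).

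Moxd1 was nearest to Kcnk1, a potassium channel gene, at 0.84. The Kcnk1 values were 11.63, 12.08 and 9.01 in the Lcn2-/- controls, against 9.44, 8.08, 7.02 and 6.41 in the WT controls. So Lcn2-/- control 3 was the lowest of its group in both genes, and WT control 1 the highest of its own. The next were Capn8 (1.15), Rnase2a (1.23), Riiad1 (1.28) and an unnamed transcript on chromosome 15 (1.33). Riiad1 was well above background only on the 3 Lcn2-/- controls, at 8.69, 8.74 and 7.13. For Tm4sf20, 12 of the 16 values compared were not well above background, and 9 of them were substitutes, as were 9 of those of Irx1, so likeness there is in part that of values at background. Tm4sf20 was nearest to Slc22a3 (0.62), followed by 2900009J06Rik (0.68), Themis (0.70), E030003E18Rik (0.78) and a transcript without a gene name (0.79). Slc22a3 was at 7.49, 5.71, 6.86 and 5.79 in the WT controls and between 4.79 and 5.59 in the Lcn2-/- controls. Moxd1 and Tm4sf20 were far from each other, at 2.38.

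**Figure D3:**
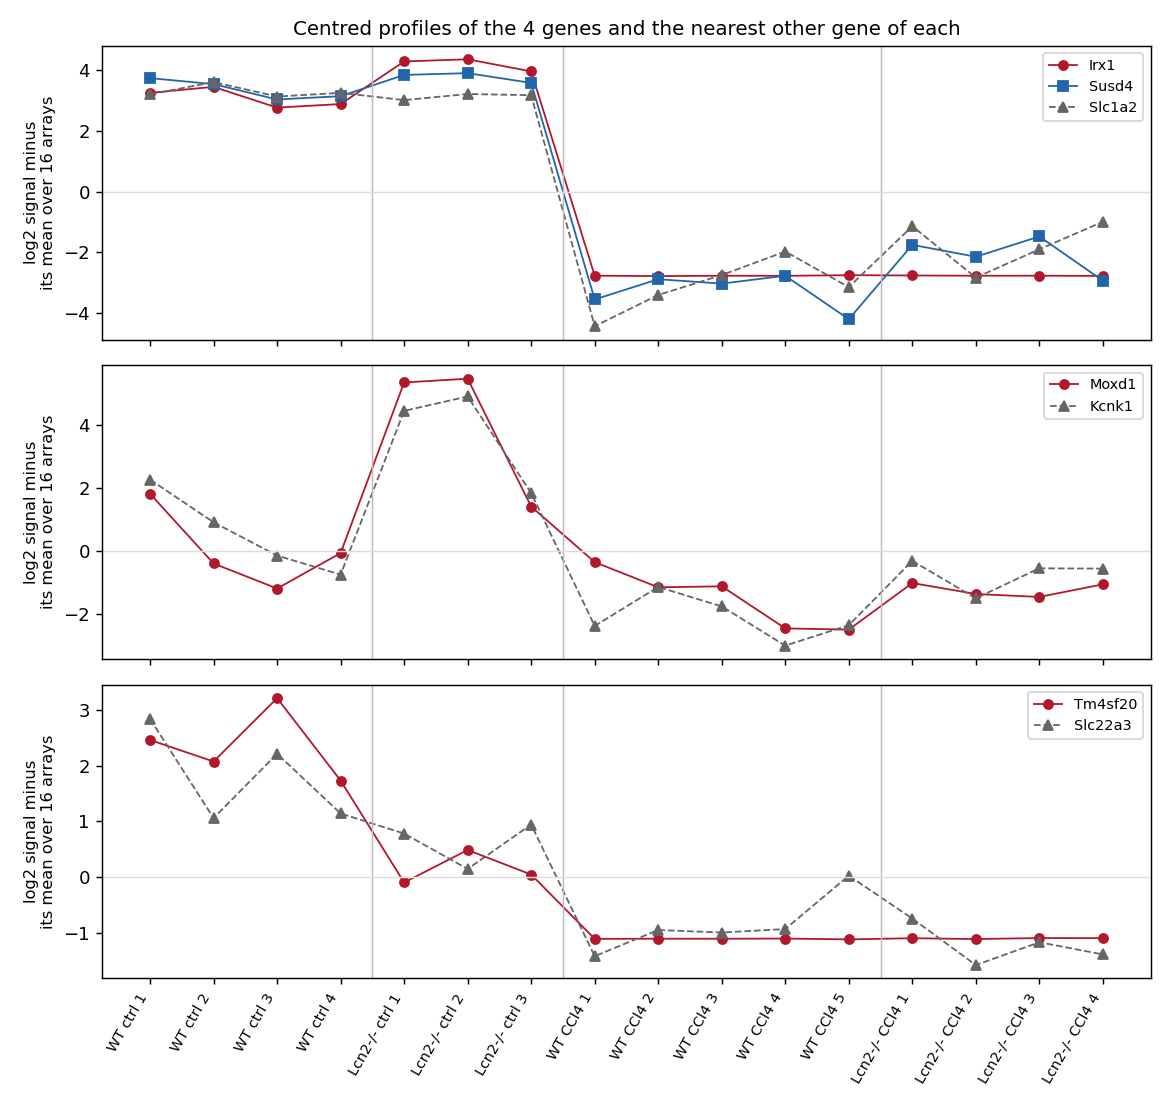
Log2 normalized signal minus its mean over 16 arrays, for Irx1 and Susd4 with Slc1a2 (top), Moxd1 with Kcnk1 (middle) and Tm4sf20 with Slc22a3 (bottom), with arrays in the order of group and replicate and grey lines between groups. Irx1, Susd4 and Slc1a2 share a step between all controls and all CCl4 arrays, while Moxd1 and Kcnk1 peak in Lcn2-/- controls 1 and 2, and Tm4sf20 is highest in the WT controls.

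The relatives of the 4 genes were tested for the CCl4 response. With slide as a term, where WT CCl4 1 alone separates slide from treatment, 0 of the calls below for Iroquois, sushi domain, copper, L6 family and Creb3 genes were kept. Of the other Iroquois genes, Irx2, Irx5 and Irx6 were each well above background on 1 array and were not tested, and neither Irx3 nor Irx4 passed between CCl4 and control in either genotype, by limma, although 1 of them had an unadjusted p under 0.05 in WT, and 1 was called lower in WT without Lcn2-/- CCl4 4 and with array weights. The CCl4 response of Irx3 was -0.53 in WT and -0.55 in Lcn2-/- (limma adjusted p 0.407 and 0.476), and that of Irx4 was -0.56 and -0.53 (limma adjusted p 0.166 and 0.278). Irx3 in WT and Irx4 in Lcn2-/- each had a CCl4 value below the lowest detected signal of its array, so these responses are not exact. Irx3 was instead higher in Lcn2-/- than in WT livers under CCl4, by 1.94 (SE 0.40, limma adjusted p 0.0474), in a comparison that 0.524% of probes passed, with 6.32 to 7.31 in Lcn2-/- against 4.16 to 6.30 in WT and no overlap, as in 2.35% of probes with Lcn2-/- higher. This call was lost in 18 of 26 alternative settings (adjusted p 0.0116 to 0.268), among them the fits without any 1 of the WT controls. The WT value of 4.16 lay below the lowest detected signal of every WT CCl4 array (4.44 to 5.30), so the difference of 1.94 is not exact. In controls Irx3 was 1.96 higher (SE 0.45, limma adjusted p 0.0919), a difference that did not pass, with no overlap, as in 4.11% of probes with Lcn2-/- higher. It passed after normexp background correction, in the authors' own log2 table, with array weights and without WT CCl4 2. Its adjusted p ran from 0.0216 to 0.565 over 26 alternatives.

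Of the other sushi domain genes, Susd2 rose after CCl4 in both genotypes. The rise was 0.92 in WT, with an SE of 0.18 and a limma adjusted p of 0.00374, and 0.88 in Lcn2-/- livers, with an SE of 0.21 and an adjusted p of 0.0151. Susd1 and Susd6 differed by 0.07 and 0.26 in WT and did not pass, and Susd3 and Susd5 were well above background on no array. In the list of sushi domain genes and complement regulators, 1 of 17 tested passed in WT and 2 in Lcn2-/-, Susd2 and the lower Cd59b, which encodes a membrane inhibitor of complement lysis (-0.91, limma adjusted p 0.0143). In Lcn2-/- the Susd2 call was lost without control 2 or control 3 and the Cd59b call without control 1. With arrays scaled to their 75th percentile 2 genes of the list fell in each genotype. The list's median was 0.07 in WT, against -0.03 over all 24348 genes tested, of which 8.17% fell and 7.71% rose. Of 21 complement components, 6 fell in WT and 2 in Lcn2-/-, where 5.26% of all genes fell and 6.32% rose. C6, of the membrane attack complex, fell by 1.78 in WT (limma adjusted p 0.00335), C8b of the same complex fell by 1.25 (0.00159), and Cfd, the protease factor D, was at least 2.32-fold lower (0.0004). In Lcn2-/- 1 of these genes passed without control 1 or control 2, and with slide as a term 2 passed in WT and 0 in Lcn2-/-. With arrays scaled to their 75th percentile 9 fell in WT and 4 in Lcn2-/-. Without both controls nearest the CCl4 arrays 3 rose in WT and 2 in Lcn2-/-, against 0 in the fit with all arrays.

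Among the copper monooxygenases related to Moxd1, Pam, which amidates peptide hormones, was well above background on all 16 arrays. Its CCl4 response was 0.32 in WT (SE 0.67) and 0.54 in Lcn2-/- (SE 0.77) and did not pass. Dbh was well above background on 1 array and Moxd2 on 0. Of the 12 copper genes tested, 1 rose in WT, the copper exporter Atp7a by 0.56 (limma adjusted p 0.0154), against 7.71% of all genes. In Lcn2-/- 0 passed by limma with an adjusted p under 0.05, where 1 had an unadjusted p under 0.05 and 6.32% of all genes rose. No change of the list is read from these counts. The Atp7a call was lost without WT control 2, and 1 gene rose in Lcn2-/- without Lcn2-/- control 3, without both controls nearest the CCl4 arrays and with array weights.

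Against 5.26% of all genes that fell in Lcn2-/-, 1 of 4 genes tested in the L6 family of Tm4sf20 passed the threshold there, Tm4sf5. Its CCl4 response in Lcn2-/- was -1.27, with an SE of 0.36 and a limma adjusted p of 0.0355, and in WT it was -0.98, which did not pass (SE 0.32, adjusted p 0.0512). The call was lost without any 1 of the Lcn2-/- controls, Lcn2-/- CCl4 3 or Lcn2-/- CCl4 4. In WT, 1 L6 gene was called lower after normexp background correction, in the authors' own log2 table, with array weights and with the replicate block, 2 with arrays scaled to their 75th percentile, and 0 to 2 over the fits without 1 array. Tm4sf1, Tm4sf4 and Tm4sf19 differed by -0.39, -0.21 and 0.61 in WT and did not pass. Of 9 genes for the proteolysis of Creb3 factors, 0 passed in WT by limma, where 2 had an unadjusted p under 0.05. Over all genes 7.71% rose and 8.17% fell in WT, and 6.32% rose and 5.26% fell in Lcn2-/-. In Lcn2-/- 2 of the 9 rose, Creb3l4 by 0.91 (limma adjusted p 0.0244) and the protease Mbtps2 by 0.56 (0.0206). Neither passed without Lcn2-/- control 1, Lcn2-/- control 2 or Lcn2-/- CCl4 3, and 1 of the 9 genes rose in WT without WT control 3, without WT CCl4 3, without both controls nearest the CCl4 arrays, in the authors' own log2 table and with array weights. Creb3l1 itself had responses of -0.19 and -0.23 and did not pass.

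The liver's other programmes give the background to the 4 falls. Of 11 genes for secreted hepatocyte proteins and hepatocyte identity, among them Alb and Ttr, 0 passed the limma threshold in either genotype, also at an unadjusted p under 0.05, and their summed normalized signal ran from 3684570 to 3971210 in WT controls and from 3532240 to 4124270 in WT CCl4. Of 20 pericentral hepatocyte genes, 8 fell in WT and 5 in Lcn2-/-, against 8.17% and 5.26% of all genes. Slc1a2 fell by 6.45 in WT (limma adjusted p 9.7e-07), Oat, of ornithine metabolism, by 3.65 (7.4e-06) and Glul, glutamine synthetase, fell by 2.53 (8e-06). Cyp2e1, which activates CCl4, differed by -0.13 in WT and did not pass (limma adjusted p 0.398). Of 15 periportal genes, 7 rose in WT and 4 in Lcn2-/-, against 7.71% and 6.32% of all genes, with Mfsd2a, a lipid transporter, higher by 2.44 (0.0043), Sds, serine dehydratase, by 1.42 (0.00156) and Cdh1, the adhesion protein E-cadherin, by 0.94 (0.00078). With slide as a term 3 and 2 pericentral genes fell and 2 and 0 periportal genes rose, in WT and Lcn2-/-. With arrays scaled to their 75th percentile 4 and 2 periportal genes rose and 2 hepatocyte identity genes fell in WT. Without Lcn2-/- control 2, 2 periportal genes rose in Lcn2-/-, and with array weights 7 rose.

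Of 14 genes with male-biased liver expression, 9 fell in WT and 4 in Lcn2-/-, against 8.17% and 5.26% of all genes. In WT, Hsd3b5, a steroid enzyme, fell by 5.25 (limma adjusted p 0.00051), Slco1a1, an organic anion transporter, fell by 4.42 (0.00074) and Cyp7b1, a sterol hydroxylase, by 3.59 (5e-05). Under CCl4, Cyp7b1 was 2.01 higher in Lcn2-/- than in WT (limma adjusted p 0.0431), a call lost in 17 of 27 alternative settings (adjusted p 0.0185 to 0.141), among them leaving out any 1 of the Lcn2-/- controls. Of 10 female-biased genes, 4 rose and 2 fell in WT, and 2 rose and 2 fell in Lcn2-/-, against 7.71% and 6.32% of all genes that rose. The WT rises included 3.61 for Cyp3a44 (limma adjusted p 0.0005) and 3.56 for Cyp2b9 (0.0074). In Lcn2-/- 2 male-biased genes fell without control 1, 1 without control 2 and 7 with array weights. The count of female-biased genes that fell in Lcn2-/- was 0 to 2 over the fits without 1 array. With slide as a term 2 male-biased genes fell in Lcn2-/-, and 1 female-biased gene rose in WT and 0 in Lcn2-/-.

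Markers of other cell types were examined for the same treatment, where 7.71% of all genes rose and 8.17% fell in WT. In Lcn2-/- 6.32% of all genes rose and 5.26% fell. Of 11 stellate cell and myofibroblast genes, 8 rose in WT and 7 in Lcn2-/-, with Col1a1, Col1a2 and Col3a1 higher by 3.49, 2.89 and 2.64 in WT (limma adjusted p 0.00015, 0.00027 and 8.1e-05), and their summed normalized signal ran from 40614 to 97772 in WT controls and from 139266 to 342282 in WT CCl4. Of 10 macrophage genes 2 rose in both genotypes, Gpnmb and Cd68 (by 7.10 and 2.12 in WT, limma adjusted p 3.4e-06 and 0.0074), and 2 fell in WT, Clec4f and Timd4. Over the fits without 1 array the stellate count in WT was 5 to 8, with 5 without WT control 1, WT control 2, WT CCl4 1 or WT CCl4 4. It was also 5 with arrays scaled to their 75th percentile and with slide row as a term. With slide as a term it was 4 in Lcn2-/-. The macrophage count of rises in Lcn2-/- was 1 without Lcn2-/- control 1 or 2, without any 1 Lcn2-/- CCl4 array, without WT CCl4 1, 2 or 4, with the replicate block and with slide as a term, where in WT 1 rose and 0 fell. Without both controls nearest the CCl4 arrays 4 rose in each genotype. The WT count of falls was 1 without WT control 2 or 3 or WT CCl4 1, 2 or 4. Gpnmb was at least 3.81-fold lower in Lcn2-/- than in WT controls (limma adjusted p 0.0131). In that comparison 0.479% of probes passed, 0.209% higher and 0.27% lower. The Gpnmb call was lost in 6 of 26 alternative settings (adjusted p 0.0033 to 0.718). Among them were the replicate block (0.11) and the fits without Lcn2-/- control 2 (0.0672) or control 3 (0.0625). The counts of sinusoidal and cholangiocyte genes stand beside 8.17% of all genes that fell and 7.71% that rose in WT, and no change of either list is read from them. Of 8 sinusoidal genes Lyve1 rose in both genotypes (by 1.52 in WT, limma adjusted p 0.0305) and Stab2 fell in WT by 0.43 (0.0351), and of 7 cholangiocyte genes Spp1 rose in both (by 1.67 in WT, 0.021). The WT calls of both lists were lost when WT control 1 or WT control 2 was left out, and the Lcn2-/- calls when Lcn2-/- control 1 or control 2 was left out. With slide as a term none of these calls was kept, and the Stab2 call was also lost with the replicate block. The part of these cells in the falls of the 4 genes was not tested.

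**Figure D4:**
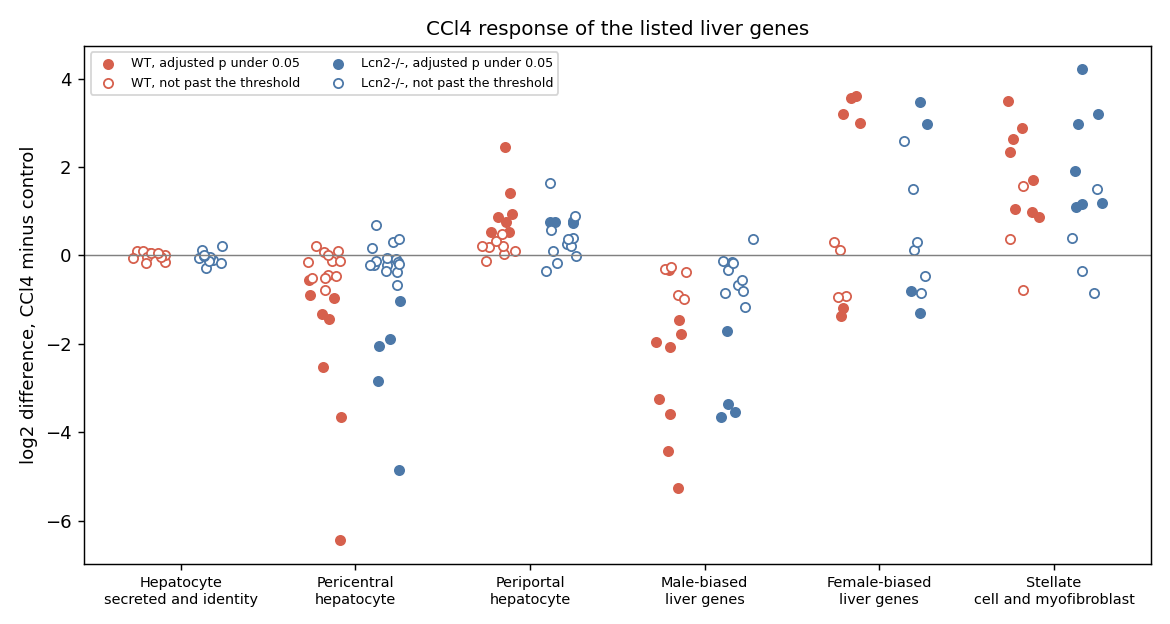
Log2 difference between CCl4 and control for each tested gene of 6 lists, in WT (red) and Lcn2-/- (blue), with filled points where the limma adjusted p was under 0.05. The 11 hepatocyte identity genes lie close to 0, with no filled point, while 8 pericentral and 9 male-biased genes are filled and lower in WT, and 8 stellate cell and myofibroblast genes are filled and higher.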

How the data were processed

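RNA from 16 livers was labelled with Cy3 and hybridised to 1-colour Agilent arrays by the authors. The deposited files hold each array's spot intensity values, from Feature Extraction 10.7.3.1 per the file headers, on a linear scale and not normalized between arrays. A second deposited table, of log2 values that the authors had quantile normalized, served as an alternative. The log2 processed signal of 59305 gene spots was quantile normalized here, spots of a probe were averaged, and 33004 probes, each above background on 3 or more arrays, entered limma 3.58.1 (R 4.3.3) in 1 model over the 4 groups, with Benjamini-Hochberg adjustment over all of them and a threshold of 0.05. For gene lists the probe with the highest mean stood for each of 24348 genes. RefSeq names (GRCm38.p6) matched 49.8% of gene spots. Motifs were searched with Python 3.

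Where a probe was dark on every array of a group, its fold is a lower bound. The floor of an array was its lowest detected signal, or the probe's own signal if that was larger, and the mean floor of the dark group was set against the mean of the other group. The number of arrays limits the precision. Correlations between arrays of a group were 0.9708 to 0.9911 across probes. Each array is 1 animal, so p-values measure the spread between animals. Same-numbered WT and Lcn2-/- controls deviated together (r 0.20, 0.38 and 0.52 over all probes), while CCl4 pairs ranged from -0.25 to 0.27. No r between controls of different number is given, so these values do not show that the numbers pair them. The main model holds no pairing, and a replicate block is given as an alternative.

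The members and lists were chosen with earlier results of these data known. Genotype comparisons of the 4 genes were planned as tests but are given as descriptions, since they share values with the choice of genes. Named are the members, the measured genes of their families, up to 3 genes per list with the largest WT response among those past the threshold, those past a genotype threshold, and the 5 nearest genes per member. The values of 1 listed gene are not reported here. Exceptions, chosen after their values were seen, are Esrrg, Tmc7, Cd59b, Creb3l1, Creb3l4, Mbtps2, Alb, Ttr, Cyp2e1 and Clec4f. The script was tested on simulated data. Alternatives were scaling, background correction, the deposited table, filters, blocks, array weights and leaving out arrays.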

Additional observations from a re-analysis of the deposited data

Results flagged for a closer look

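Of 72 pairs of gene and group examined for an array far from the others, 7 had one, and chance alone would give about 1 in 20. The statistic is the gap to the nearest array over the range of the group. Relatives of the 4 genes made up all 7. Not among them is Moxd1 on Lcn2-/- control 3, which lay 3.95 below the next array in a group range of 4.07. In the copper monooxygenase gene Pam, WT CCl4 5 was at 6.20 against 8.64 to 9.17 on the other arrays (0.823), and Lcn2-/- CCl4 4 was at 5.81 against 8.92 to 9.24 (0.908). In Tm4sf4, of the L6 family, the same arrays were lowest, WT CCl4 5 at 13.63 against 15.47 to 15.81 (0.844) and Lcn2-/- CCl4 4 at 13.28 against 15.49 to 15.94 (0.83). These are also the arrays with the lowest Susd4 in their groups. In the Iroquois genes, Irx3 was 6.32 on Lcn2-/- CCl4 1 against 7.22 to 7.31 (0.908), and Irx4 was 4.35 on Lcn2-/- CCl4 4 against 5.52 to 5.66 (0.892). That Irx4 value lay below the lowest detected signal of its array, 5.61, so it is a value at background. Tm4sf5 was 9.06 on WT control 4 against 9.98 to 10.16 (0.834).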

How the results depend on the processing

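The genotype difference of Irx1 in controls was 1.11 with the control arrays alone, 1.05 with these and a replicate block, and 1.11 with slide row as a term. The row term could not move it, since that term is set by the WT CCl4 arrays, where Irx1 holds substitutes. Row and genotype cannot be told apart for Irx1. Fitted differences against a group below background on every array are not given. That of Moxd1 was 2.96 after normexp, 3.53 in the deposited table, 4.35 with array weights, 4.97 without both controls nearest the CCl4 arrays, and 3.35 to 5.38 leaving out 1 array. The Susd4 difference under CCl4 was 1.21 with array weights, and 0.98 to 1.50 leaving out 1 array. The Moxd1 response in WT was -0.40 with slide as a term. After normexp the lower bounds for CCl4 on the log2 scale were 2.52 for Irx1 in WT (3.91 as reported) and 3.26 in Lcn2-/- (4.54), 0.83 for Tm4sf20 in WT (1.56), and 3.26 for Moxd1 in Lcn2-/- (4.48). The cause of these changes was not tested.

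With the replicate block, which the labels' numbers allow, Irx1 differed by 1.09 and Moxd1 by 3.92 in controls, and Susd4 by 0.98 under CCl4. Probes past the threshold numbered 3525 for CCl4 in Lcn2-/- and 4563 in WT, against 3659 and 4950 without the block, and 120 and 117 for genotype in controls and under CCl4, against 158 and 173.

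Array weights gave 8487 and 8669 probes for CCl4 in Lcn2-/- and WT, and slide as a term 525 and 1490. Leaving out 1 array gave 2011 to 3870 in Lcn2-/-, lowest without Lcn2-/- control 2, and 2966 to 6178 in WT, lowest without WT control 1. For genotype in controls the count was 104 with the control arrays alone, 0 with these and a replicate block by limma (5094 at an unadjusted p under 0.05), 322 with no filter on dim probes, 72 with probes above background on all 16 arrays, 1409 with array weights and 57 with slide row as a term. Under CCl4 it was 263 without both near controls, 99 with the CCl4 arrays alone, 384 with array weights, 97 with slide row as a term, and 88 to 199 leaving out 1 array. Listed genes past the threshold were 20 higher and 15 lower in Lcn2-/-, and 25 and 27 in WT. Slide as a term gave 5 and 4, and 10 and 13, array weights 31 higher in Lcn2-/-, and scaling to the 75th percentile 42 lower in WT. Leaving out 1 array gave 10 to 21 higher and 7 to 15 lower in Lcn2-/-, and 16 to 25 higher in WT. Under that scaling the median probe differed by -0.17 in WT and -0.15 in Lcn2-/- with CCl4, against -0.04 and -0.02 as reported. Of the single listed counts and genotype calls, 161 moved by over 1.5 times, 41 lost a call, 4 gained one and 1519 did neither. A signal at background limits Irx1, Tm4sf20 and Moxd1.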
